A study of Mus musculus with 6 samples.

Results

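The 3′ flank of the mouse immunoglobulin heavy chain (Igh) locus is the stretch of chromosome 12 outside the last constant gene and beyond the 3′ regulatory region. Its contacts with itself, with the constant genes and with a region around the D and J segments were counted in 3 cell types. The method was chromosome conformation capture carbon copy (5C). In 5C, chromatin is crosslinked, cut with HindIII and religated, and each forward (FOR) primer can be joined to a reverse (REV) primer when their fragments were ligated, so a read counts 1 ligation product of 1 primer pair. Pairs were chosen by position (mm9): one fragment midpoint in chr12:114339456-114420752 (the flank), the other in the flank or in chr12:114486613-114691293 (constant and D-J regions). This gave 368 of the 12656 Igh primer pairs. Of them, 64 joined the flank to itself, 200 to the constant region (114486613 to 114656272) and 104 to the D-J region (114656273 to 114691293). This D-J region also holds the intronic enhancer and fragments on its constant side, so its sums are not of D and J segments alone. The region edges and the enhancer's fragment follow approximate textbook positions, and mm9 gene models were not used here.

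Mouse embryonic fibroblasts (MEF), in which the locus is silent, were taken from culture. The pro-B cells were Rag2-deficient, came from bone marrow and were grown with IL7 before the assay, so that their Igh alleles could not be recombined and their numbers were expanded in vitro. CD43- resting B cells were taken from the spleen on magnetic beads without culture, and such cells carry rearranged Igh alleles. Each cell type had 2 biological replicates per the series description; strain, age and sex are not given in the labels, and lineage, genotype, tissue and culture go together and cannot be told apart. No expression was measured, so the cell types could not be checked against marker genes.

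The constant genes encode the antibody classes, and the 3′ regulatory region beyond them is a group of enhancers and CTCF sites that acts on heavy chain transcription and class switching in mature B cells. The intronic enhancer sits between J segments and Ighm, is active from early B cell stages and accompanies D to J joining. DNA between joined D and J segments is deleted during recombination. In the mouse reference (RefSeq, GRCm38.p6, used here only for names and their order), the genes next to the locus on this side are Tmem121, Tedc1 and Crip1, and the constant genes run from Igha through Ighe, Ighg2c, Ighg2b, Ighg1, Ighg3 and Ighd to Ighm. Which primer fragment holds which gene was not determined.

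The flank was covered by 16 fragments, 8 with forward and 8 with reverse primers, of 857 to 12464 bp. Fragment length and primer strength differ, so levels are compared between cell types for the same fragment and not between fragments. The pairs lay 2.2 to 74.6 kb apart within the flank, 74.0 to 311.4 kb apart with the constant region and 244.5 to 348.7 kb apart with the D-J region. Libraries held 20580457 to 24191175 valid read pairs, and these 368 pairs took 6.90% and 8.05% of the Igh reads of MEF, 4.84% and 6.61% of those of pro-B and 11.6% and 10.3% of those of resting B libraries. The median pair had 57 and 147.5 reads in the MEF libraries, 94.5 and 141 for pro-B, and 636.5 and 531.5 for resting B. Pro-B replicate 2 stood apart from the other libraries of the series in its pairs without reads, 1641 of 12656. In the flank pairs, 21 had 0 reads in this library, 7 in pro-B replicate 1, 10 and 5 in MEF and none in resting B cells. A pair at 0 could hold up to 3 reads, and such limits cover counting error only. Over the 368 pairs, log2 levels of the replicates correlated with r = 0.747 for pro-B, 0.904 for MEF and 0.948 for resting B, and differed between replicates by a median of 1.42, 0.75 and 0.29. These pairs share libraries and fragments and are not independent.

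In resting B cells the flank was joined to the constant and D-J regions more often than in MEF and in pro-B cells, whereas the sum of its contacts with itself did not pass the test. The rises over MEF and over pro-B cells were not limited to these partners, as given under the other observations. Levels are reads scaled to library size (CPM, as edgeR gives it) after TMM scaling over all tested cis pairs. Differences between cell types are log2 folds throughout, unless written as -fold. Reads with the constant region summed to 1045 and 1567 CPM for MEF, 1767 and 1975 for pro-B and 7091 and 6907 for resting B. Both resting B libraries were thus above all others, and the pro-B libraries were above both MEF libraries. The resting B level was 5.36-fold that of MEF (log2 2.42 ± 0.27 SE, 2 libraries a group; edgeR quasi-likelihood test, Benjamini-Hochberg over 55 region sums, adjusted p = 0.000272) and 3.74-fold that of pro-B cells (1.90 ± 0.27, edgeR adjusted p = 0.00318).

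Reads with the D-J region summed to 282 and 339 CPM for MEF, 744 and 655 for pro-B and 1699 and 1899 for resting B. The 3 cell types did not overlap, and each step was past the threshold of 0.05. Resting B cells were 5.80-fold above MEF (log2 2.53 ± 0.28, edgeR adjusted p = 0.000272) and 2.57-fold above pro-B cells (1.36 ± 0.27, adjusted p = 0.00679). Pro-B cells were above MEF by 1.17 ± 0.26 (edgeR adjusted p = 0.0227). Of all 55 region sums, 32.7% were called higher in resting B cells than in MEF and 16.4% lower, 20% higher than in pro-B cells and 21.8% lower, and 9.09% higher in pro-B cells than in MEF and 0% lower. The comparisons share libraries and are not independent of each other. Leaving out any 1 library kept the rises of both sums over MEF and the rise of the constant sum over pro-B cells past 0.05. The D-J rise from pro-B to resting B cells was lost without resting B replicate 2 (edgeR adjusted p = 0.0858), with scaling to gene desert reads (0.147) and with a distance correction (0.0555). That from MEF to pro-B cells was lost without MEF replicate 1 (edgeR adjusted p = 0.340), MEF replicate 2 (0.107), resting B replicate 1 (0.0845) or resting B replicate 2 (0.0858), with scaling to total cis reads (0.322) or gene desert reads (0.596), with only the 4 libraries compared (0.163) and with each pair counted once (limma, 0.234), at log2 folds of 0.51 to 1.30.

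**Figure D1:**
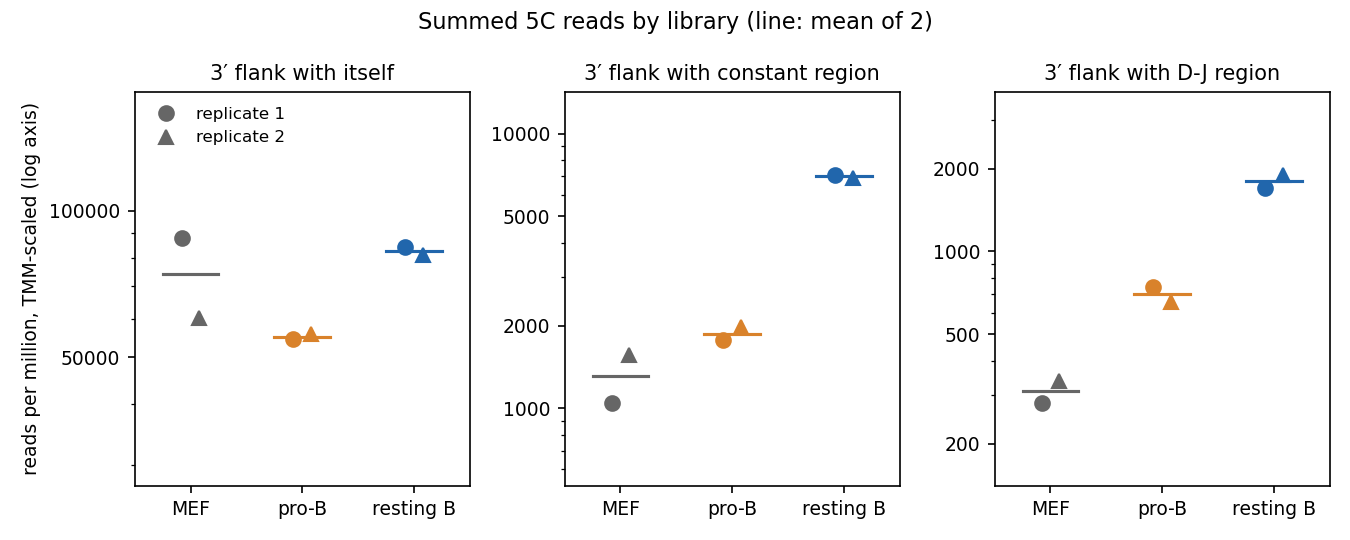
Summed reads of the 3′ flank with itself, the constant region and the D-J region, in TMM-scaled CPM on a log axis; circles and triangles are replicates 1 and 2 and lines their means. With the constant region the resting B libraries lie at 7091 and 6907 against 1045 to 1975 in the other 4; within the flank the ranges of resting B cells and MEF overlap.

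Reads within the flank summed to 87818 and 60275 CPM for MEF, 54401 and 55788 for pro-B and 84227 and 81266 for resting B. The resting B libraries lay between those of MEF, and both pro-B libraries lay below all others. No comparison passed (edgeR; resting B over MEF 0.16 ± 0.38, adjusted p = 0.719; resting B over pro-B 0.59 ± 0.38, 0.202; pro-B over MEF -0.43 ± 0.38, 0.563). This sum is made almost wholly by neighbouring fragments: pairs under 20 kb apart held 94.3% to 97.4% of it, and 1 pair, FOR 16 (114399193 to 114400223) with REV 15 (114395287 to 114399192), held 23.5% to 41.0%. FOR 16 with REV 15 had 460099 and 519122 reads for MEF, 223969 and 422435 for pro-B and 765144 and 720295 for resting B. FOR 6 with REV 7, the pair with the second most reads, had 194587 and 288088 for MEF, 127421 and 173686 for pro-B and 278144 and 228990 for resting B. In both pairs the pro-B libraries were the lowest of the 6, and no fold passed. Without pairs under 20 kb, resting B cells were higher than MEF by 0.92 (edgeR adjusted p = 0.00857) and than pro-B cells by 1.19 (0.00512). Without FOR 16 with REV 15, the fold over MEF was -0.031. With scaling to total cis reads or to gene desert reads the whole sum passed for resting B over pro-B cells (0.86 and 0.84, edgeR adjusted p = 0.000220 and 0.0253). Of the 16 flank fragments summed over the flank, 1 was called in resting B over pro-B cells and 0 in the other comparisons: REV 19, with 1987 and 2165 CPM for pro-B and 5600 and 4780 for resting B (1.32, edgeR adjusted p = 0.0468).

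With the constant and D-J regions, single pairs gave the same picture with a wider error. Within the flank they differed from the sum: 55 of 64 had a fold above 0 for resting B over MEF (median 1.03). Of the 367 pairs with enough reads to test, 350 (95.4%) had a fold above 0 for resting B over MEF, with a median log2 fold of 2.32 against -0.017 over all tested Igh pairs. All 199 tested pairs with the constant region were above 0 (median 2.60), as were 96 of 104 with the D-J region (median 2.35). Other Igh pairs at the separations of the constant region pairs had a median of -0.49, and those at the separations of the D-J pairs -0.57. These other pairs come from the whole locus, and a rise over MEF was not particular to the flank. Sums of the 3′ regulatory region with the constant (1.45, edgeR adjusted p = 0.00829) and D-J regions (2.21, 0.000393) rose over MEF too. So did that of the constant with the D-J region (0.88, 0.0127). Within the flank, all 34 pairs 20 kb or more apart had a fold above 0 (median 1.28; other Igh pairs at these separations -0.36), and 21 of 30 closer pairs did (median 0.30). Both resting B libraries exceeded the other 4 in 279 of the 367 pairs (76%), against 23.3% of all Igh pairs. By group this held for 177 of 199 pairs with the constant region, 57 of 104 with the D-J region and 45 of 64 within the flank.

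Of the 367 pairs, 9 were called higher in resting B cells than in MEF and 0 lower (edgeR, Benjamini-Hochberg over 11940 Igh pairs; 0.369% of all tested Igh pairs were called higher and 0.385% lower; at an unadjusted p under 0.05, 191 were higher and 0 lower, against 1043 and 1458 of all 11940, and DESeq2 called 166 of the 367 higher). FOR 14 (114394005 to 114395286) with REV 33, the first fragment of the constant region (114486613 to 114491122), had 98 and 291 reads for MEF, 90 and 100 for pro-B, and 2180 and 1797 for resting B. It was 94.2 kb apart and 10.7-fold higher in resting B cells than in MEF (log2 3.41 ± 0.49, edgeR adjusted p = 0.0440). FOR 6 with REV 41, a fragment farther into the constant region, had 37 and 94 reads for MEF, 78 and 115 for pro-B, and 1159 and 942 for resting B (4.04 ± 0.54 over MEF, adjusted p = 0.0440). In both pairs the pro-B libraries lay within or near the range of MEF.

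At the other end of the constant region, REV 75 (114652514 to 114656272) was a partner in 4 of the 9 calls. It pairs with the 8 forward fragments of the flank. FOR 11 with REV 75 had 63 and 49 reads for MEF, 282 and 490 for pro-B, and 980 and 805 for resting B (3.84 ± 0.57 for resting B over MEF, edgeR adjusted p = 0.0440), and the 3 cell types did not overlap. The other calls of REV 75 were with FOR 14 (3.20), FOR 16 (4.19) and FOR 18 (3.27). Across the D-J boundary, FOR 78 (114659959 to 114662158) with REV 17 had 55 and 81 reads for MEF, 174 and 355 for pro-B, and 1044 and 728 for resting B (3.65 ± 0.53 over MEF, adjusted p = 0.0440). The remaining calls were FOR 11 with REV 33 (3.31) and FOR 14 with REV 81 (4.58). The count of 9 changed with the library left out: it was 259 without pro-B replicate 1, 261 without pro-B replicate 2, and 0 without any 1 library of MEF or of resting B cells. Among pairs with a fold below 0, none past the threshold, the lowest p were those of FOR 16 with REV 17 (-0.91), FOR 9 with REV 10 (-0.56) and FOR 20 with REV 85 (-1.34).

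**Figure D2:**
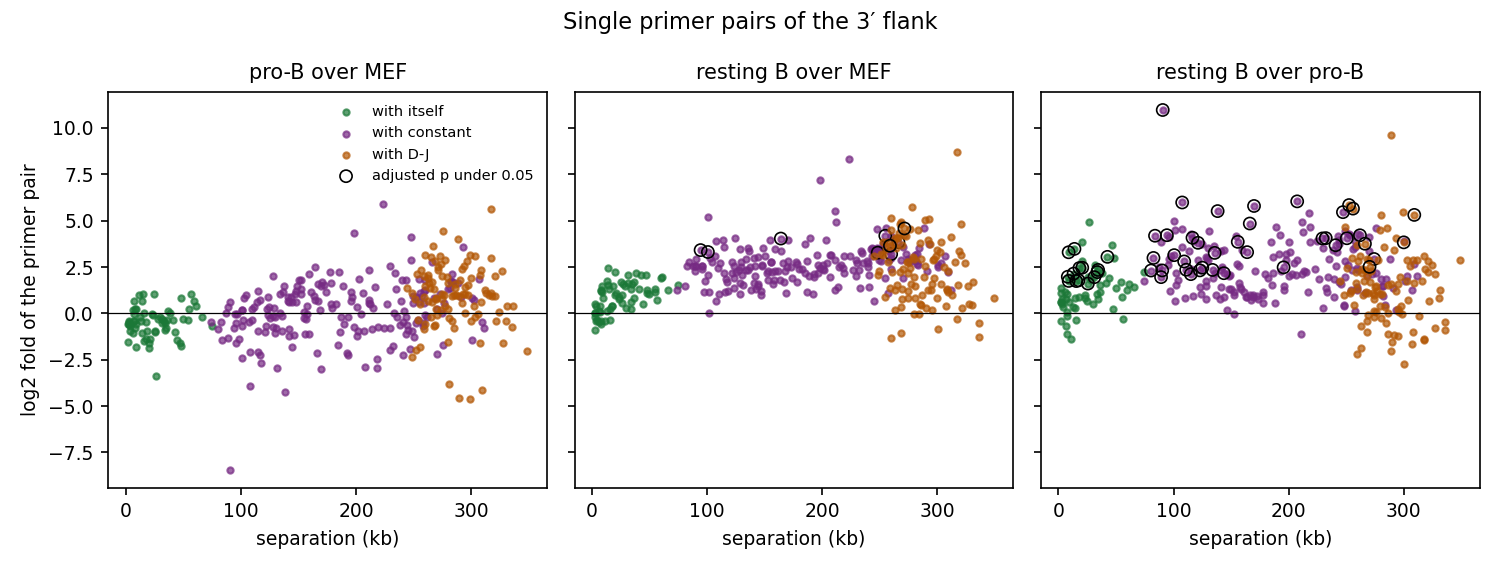
Log2 fold of each tested pair of the flank against the separation of its fragments in kb, for the 3 comparisons; colours give the partner region and black rings mark an adjusted p under 0.05. In resting B over MEF the median is 2.32 and 9 pairs are ringed, in resting B over pro-B 1.98 and 53, and in pro-B over MEF 0.21 and 0; the highest point of the right panel is FOR 36 with REV 19, whose fitted value depends on the prior count since both pro-B libraries had 0 reads.

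Summed over the constant region, all 16 flank fragments were higher in resting B cells than in MEF (edgeR, adjusted over 2240 fragment sums, of which 19.2% were called higher and 12.6% lower). The log2 folds ran from 1.52 for FOR 20, the fragment nearest to the 3′ regulatory region, to 3.64 for FOR 14 near the middle of the flank. FOR 14 had 26.8 and 36.2 CPM with the constant region in MEF, 73.4 and 44.3 for pro-B and 415 and 374 for resting B. FOR 20 had 172 and 169 CPM for MEF, 183 and 153 for pro-B and 518 and 457 for resting B. Its MEF and pro-B libraries overlapped, and its resting B libraries stood above all. FOR 11 followed FOR 14, with a fold of 3.20; the other 13 fragments lay between 2.08 (REV 19) and 2.82 (FOR 9).

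Summed over the D-J region, 15 of the 16 flank fragments were higher in resting B cells than in MEF, from 1.74 for REV 1 to 3.63 for FOR 14. FOR 20 (1.82, edgeR adjusted p = 0.0720) was the exception. FOR 14 was again at the top, with 12.6 and 7.59 CPM for MEF, 62.5 and 34.9 for pro-B and 123 and 126 for resting B. FOR 11 came next (3.44), with 9.24 and 14.7 CPM for MEF, 38.6 and 33.9 for pro-B and 122 and 139 for resting B, and then REV 7 (2.96), FOR 18 (2.94) and FOR 6 (2.67). With the constant and the D-J region alike, FOR 14 and FOR 11 had the highest folds, though differences between fragments were not tested. Reads of the same fragments with the chromosome 5 gene desert, which do not depend on Igh folding in cis, had a median fold of 0.26 over MEF in the flank (-0.26 to 1.57), and none was called.

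**Figure D3:**
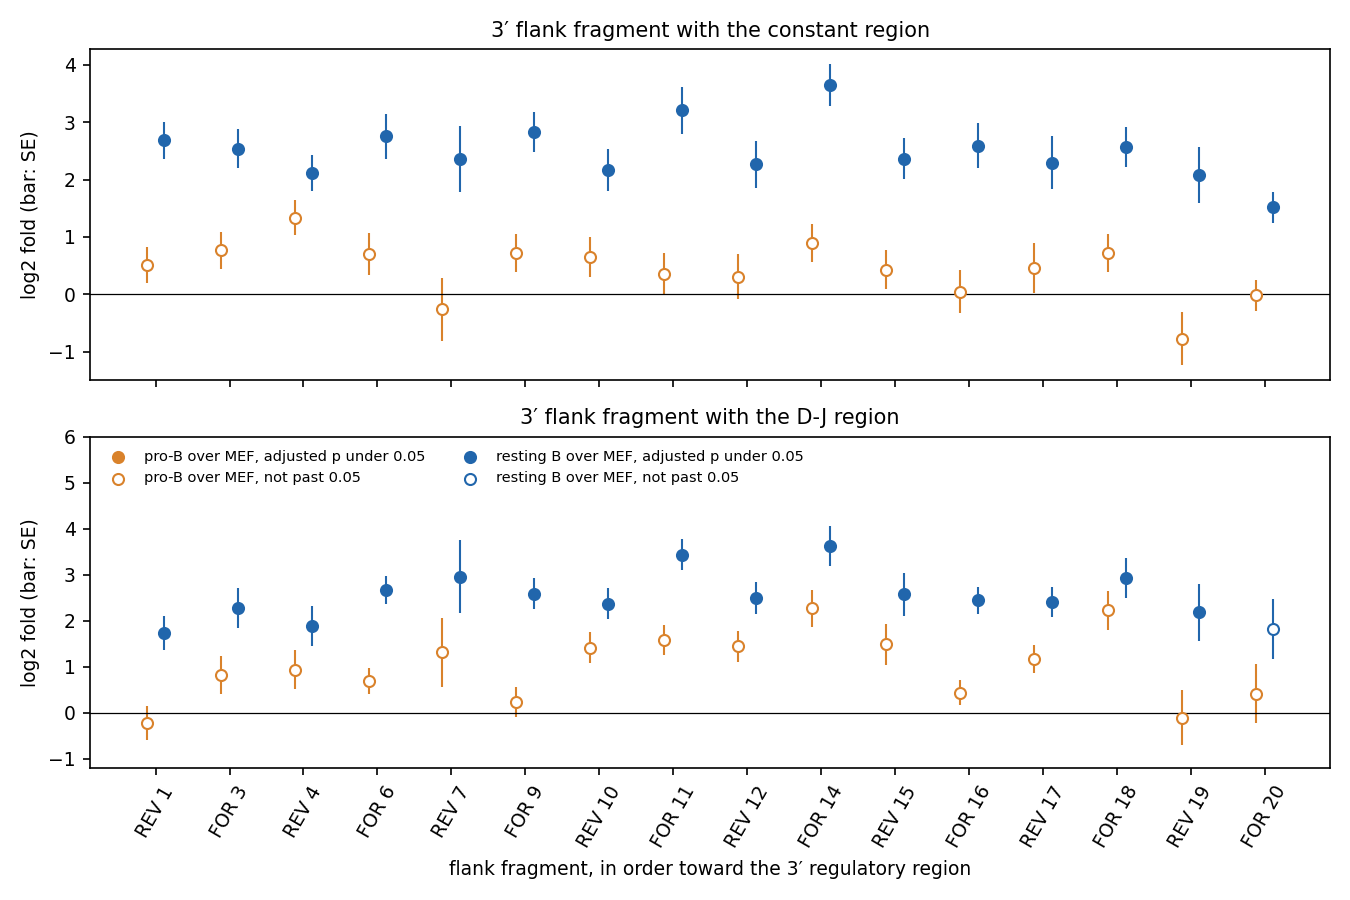
Log2 fold over MEF with its SE of each flank fragment's summed reads with the constant region (top) and the D-J region (bottom), ordered toward the 3′ regulatory region; filled points are past an adjusted p of 0.05. In resting B cells all 16 points are filled at the top and 15 at the bottom, highest at FOR 14 (3.64 and 3.63); in pro-B cells none is.

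Seen from the partners, 22 of 25 constant fragments and 10 of 13 D-J fragments were called higher with the flank in resting B cells than in MEF, and none lower. The constant fragments that were not called were FOR 36 (1.26, edgeR adjusted p = 0.104), FOR 40 (1.72, 0.0623) and REV 53 (1.72, 0.192), the last with at most 10.6 CPM in any library. REV 33, at the Igha end of the region by position, had 147 and 199 CPM for MEF, 202 and 170 for pro-B and 869 and 853 for resting B (2.31 over MEF, adjusted p = 0.00483). The 4 partners of lowest p, REV 61, REV 70, REV 73 and REV 75, lay toward the Ighm end. REV 61 had 9.71 and 12.1 CPM for MEF, 16.2 and 12.4 for pro-B and 121 and 127 for resting B (3.50 over MEF, adjusted p = 0.00429). Its pro-B libraries were close to MEF, and its resting B libraries were far above both.

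REV 70 (3.28) and REV 73 (3.23) showed the same order: REV 70 had 32.7 and 35.1 CPM for MEF, 53.7 and 73.7 for pro-B and 330 and 327 for resting B. REV 73 had 14.0 and 17.0 CPM for MEF, 20.6 and 19.5 for pro-B and 149 and 143 for resting B. REV 75, the last constant fragment before the D-J region, had 28.5 and 37.3 CPM for MEF, 141 and 151 for pro-B and 360 and 311 for resting B, so that its pro-B libraries lay between the other cell types. It was the only 1 of the 70 sums (16 flank fragments with each of the constant and D-J regions, 25 constant and 13 D-J fragments with the flank) called higher in pro-B cells than in MEF (2.15 ± 0.28, edgeR adjusted p = 0.0229; 1.38% of all fragment sums were called higher and 0.0446% lower). Scaled to total cis reads 3 sums were called, scaled to gene desert reads 0, and by DESeq2 19. Each read enters both a flank fragment sum and a partner sum, so the 70 sums are not independent. In resting B cells over MEF 63 of the 70 sums were called higher. That count was 69 without either pro-B library and 43 without MEF replicate 2, but 0 without MEF replicate 1, resting B replicate 1 or resting B replicate 2. For pro-B over MEF the count was 27 without pro-B replicate 1, 23 without pro-B replicate 2 and 0 without any other library.

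**Figure D4:**
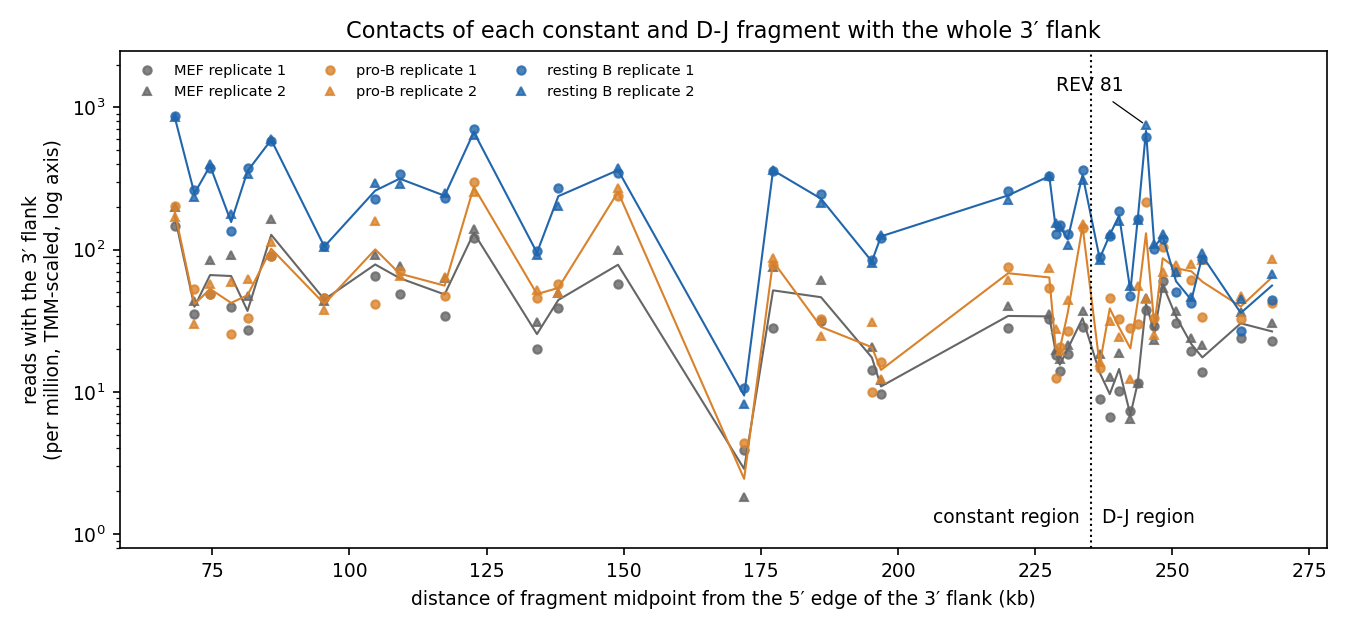
Reads of each constant and D-J fragment with the whole flank, in CPM on a log axis, against the distance of its midpoint from the flank's inner edge; points are libraries, lines are means, and the dotted line is the edge between the regions. The resting B line lies above the other lines across the constant region, from REV 33 (869 and 853) on, stands high again at REV 81 (618 and 749) and meets the others on the D side, as at REV 90 (26.8 and 44.8).

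In the D-J region the higher folds of resting B cells lay between the constant region and REV 81, the fragment that holds the intronic enhancer by its approximate textbook position. By that position, FOR 76 to FOR 80 lie on the Ighm side of the enhancer and not among the D and J segments. From the constant side, the folds over MEF were 2.66 for FOR 76, 3.71 for REV 77, 3.58 for FOR 78, 2.90 for REV 79, 3.82 for FOR 80 and 4.04 for REV 81, all past the threshold. Beyond REV 81, FOR 82 (2.00), REV 83 (1.12), REV 85 (1.03) and FOR 86 (2.37) were called with smaller folds. FOR 84 (0.82, edgeR adjusted p = 0.0721), REV 90 (0.24, 0.668) and FOR 91 (1.07, 0.0953) were not called. REV 90 had 24.0 and 36.6 CPM for MEF, 32.2 and 47.3 for pro-B and 26.8 and 44.8 for resting B, so that the 3 cell types overlapped.

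Against pro-B cells, none of the 6 fragments from REV 83 to FOR 91 was called in either direction. The folds were 0.51 for REV 83, -0.30 for FOR 84, -0.67 for REV 85, 0.60 for FOR 86, -0.15 for REV 90 (above 0 when scaled to total cis reads or to gene desert reads) and -0.19 for FOR 91. REV 85 had 61.0 and 79.6 CPM for pro-B and at most 46.4 for resting B, and its MEF libraries, at 19.4 and 23.8, were below both. A contact that is made less often and a fragment that is missing from rearranged alleles lower a count alike and cannot be told apart in these sums. Reads of these 6 fragments with the gene desert had folds of 1.30, 1.14, -0.32, -0.63, 0.51 and 0.72 in resting B over pro-B cells and of 0.88, -0.04, 0.31, -0.13, -0.18 and 0.28 over MEF, with none called.

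REV 81 (114664824 to 114667095), assigned to the intronic enhancer by approximate position only, had the highest fold of the D-J partners. Its reads with the flank summed to 37.8 and 45.4 CPM for MEF, 216 and 44.7 for pro-B and 618 and 749 for resting B. The pro-B libraries disagreed, one at the MEF level and the other above it, while both resting B libraries were above all others (4.04 ± 0.72 over MEF, edgeR adjusted p = 0.00885; 2.39 over pro-B, 0.0314). In each of its 8 pairs with forward fragments of the flank, both resting B libraries exceeded the other 4. FOR 18, next to the inner end of the flank, had 95 and 183 reads with REV 81 for MEF, 1591 and 464 for pro-B and 2573 and 3594 for resting B. FOR 11 had 8 and 83 for MEF, 309 and 193 for pro-B, and 1989 and 2355 for resting B. FOR 6, 300.0 kb away, had 144 and 211 for MEF, 153 and 83 for pro-B, and 2028 and 1927 for resting B.

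Pair by pair, only FOR 14 with REV 81 passed against MEF (4.58, edgeR adjusted p = 0.0440), with FOR 6 (3.43) and FOR 11 (5.75) just outside the threshold, and FOR 6 (3.83, 0.0214) and FOR 16 (3.76, 0.0494) passed against pro-B cells. In pro-B over MEF none of the 8 passed, with folds from -0.40 for FOR 6 to 3.17 for FOR 18. Their sign turned with the library left out: without pro-B replicate 1 the folds of FOR 3, FOR 9, FOR 16 and FOR 20 were -2.25, -3.46, -1.26 and -2.24. Without REV 81 the D-J sum of the flank was still higher by 2.05 for resting B over MEF (edgeR adjusted p = 0.000844), by 0.97 over pro-B cells (0.0280) and by 1.08 for pro-B over MEF (0.0396), an alternative added after the data were seen.

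**Figure D5:**
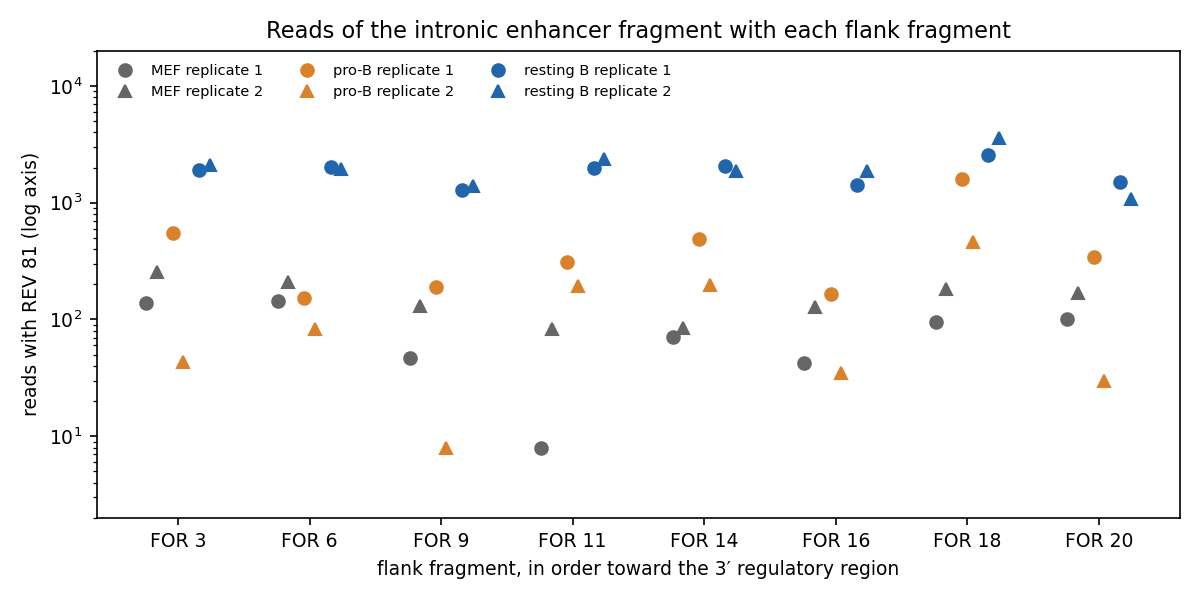
Reads of REV 81, assigned to the intronic enhancer by approximate position, with each of the 8 forward fragments of the flank, per library on a log axis. In each pair the 2 resting B points (1065 to 3594 reads) lie above all other points, and the pro-B points spread from 8 to 1591 reads.

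Of the flank's contacts, 1 of the 3 sums was called in pro-B cells over MEF. The sum with the constant region was not called (0.52 ± 0.26, edgeR adjusted p = 0.265; it passed without pro-B replicate 1, at 0.60 and 0.0337, and was -0.20 with each pair counted once), and that with the D-J region was, as given above. Over single pairs, 77 of 104 with the D-J region had a fold above 0 (74.0%, median 0.99), 108 of 199 with the constant region did (54.3%, median 0.21), and 16 of 64 within the flank did (25.0%, median -0.43). Over all tested Igh pairs the share was 51.2%, and over other Igh pairs at the same separations it was 50.2% for the D-J pairs and 51.9% for the constant pairs, so the share of the constant pairs was near the background. No pair was called in either direction (edgeR, 0% of all tested Igh pairs; at an unadjusted p under 0.05, 50 of the 367 pairs were higher and 25 lower, against 596 and 498 of all 11940, and DESeq2 called 19 and 6 of the 367). Without pro-B replicate 1, 63 were called higher and 91 lower, and the same counts were 12 and 8 when pro-B replicate 2 was left out.

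Among pairs with a fold above 0, the lowest p was that of FOR 18 with REV 75, with 133 and 136 reads for MEF and 908 and 967 for pro-B (2.87 ± 0.48, edgeR adjusted p = 0.264). FOR 11 with REV 75 (2.76) and FOR 74 with REV 4 (3.57; 22 and 26 reads for MEF, 121 and 462 for pro-B) came next and did not pass. Among those with a fold below 0, also not past the threshold, FOR 36 with REV 19 had 24 and 70 reads for MEF and 0 in both pro-B libraries, at least 13.2-fold lower against a floor of 3 reads per library. FOR 38 with REV 7 had 60 and 304 reads for MEF and 9 and 6 for pro-B (-4.25), and FOR 6 with REV 10, 15.5 kb apart, had 2136 and 3643 for MEF and 756 and 1107 for pro-B (-1.52). Among flank fragments, the largest pro-B folds over MEF with the D-J region were those of FOR 14 (2.27) and FOR 18 (2.23), neither past the threshold.

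In resting B cells over pro-B cells, 53 of the 367 pairs were called higher and 0 lower (edgeR; 2.74% and 5.16% of all tested Igh pairs; at an unadjusted p under 0.05, 180 and 5, against 1512 and 2009 of all 11940; DESeq2 called 168 and 3 of the 367). Of the 53, 33 joined the flank to the constant region, 14 joined flank fragments to each other and 6 joined it to the D-J region. The median log2 fold was 1.98 over the 367 pairs and 0.014 over all Igh pairs; it was 2.33 with the constant region, 1.44 with the D-J region and 1.32 within the flank. FOR 14 with REV 33, described above, was higher by 4.22 ± 0.51 (edgeR adjusted p = 0.0195). FOR 38, in the constant region, with REV 15 had 376 and 365 reads for pro-B and 3084 and 2772 for resting B, with 353 and 748 for MEF (2.80 ± 0.41 over pro-B, 0.0214). FOR 43 with REV 7 had 3 and 12 reads for pro-B and 461 and 426 for resting B (5.79 ± 0.88, 0.0225).

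FOR 36 with REV 19 had 0 reads in both pro-B libraries and 273 and 249 for resting B, at least 76.9-fold higher against the floor of 3 reads per library. FOR 34 with REV 10 had 209 and 219 reads for pro-B and 1287 and 1179 for resting B (2.35 ± 0.44, edgeR adjusted p = 0.0316), with 144 and 224 for MEF. In CPM, these were 11.9 and 9.30 for pro-B against 8.42 and 8.17 for MEF, so that the resting B libraries stood apart from both. REV 19, the shortest fragment of the flank, was the partner in 10 of the 53 calls. It pairs with the 8 forward fragments of the flank, 12 of the constant and 7 of the D-J region, among the 368 pairs. Its pro-B replicates differed, with 353 and 1295 reads summed over the constant region. Of the pairs with a fold below 0, the lowest p were those of FOR 3 with REV 4 (-1.37, adjusted p = 0.102), FOR 20 with REV 85 (-2.21) and FOR 84 with REV 10 (-1.54), none past the threshold. The count of 53 was 218 without pro-B replicate 1, 200 without pro-B replicate 2, and 0 without any 1 library of MEF or of resting B cells.

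As sums, 15 of 16 flank fragments with the constant region and 10 of 16 with the D-J region were higher in resting B cells than in pro-B cells, as were 22 of 25 constant and 6 of 13 D-J partners (18.2% of all fragment sums were higher and 17.8% lower). The exception with the constant region was REV 4 (0.77, edgeR adjusted p = 0.0840), which had 69.6 and 105 CPM for MEF, 232 and 209 for pro-B and 362 and 393 for resting B. REV 61 (3.12), REV 35 (2.88), REV 73 (2.87) and REV 70 (2.37) were the partners of lowest p. REV 35, near the Igha end, had 48.5 and 83.9 CPM for MEF, 48.6 and 57.1 for pro-B and 376 and 401 for resting B, so that MEF and pro-B cells overlapped. The total of 53 of 70 sums fell to 13 without resting B replicate 1 and to 0 without resting B replicate 2. Reads of flank fragments with the gene desert had a median log2 fold over pro-B cells of 0.57 (-0.50 to 1.80). The medians were 0.18 for constant and 0.59 for D-J fragments. Called higher were REV 7 (1.80) and REV 10 (1.64) of the flank, and REV 35 (1.72) and REV 55 (2.38) of the constant region. The part of these desert folds in the Igh folds was not tested.

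The flank lies next to the 3′ regulatory region (8 fragments, 114434637 to 114480873), and the contacts of both with the same partners were set against each other within each library. The log2 ratio of flank to regulatory region reads with the constant region was -2.89 and -2.11 for MEF, -4.04 and -3.01 for pro-B and -1.46 and -1.54 for resting B. With the D-J region it was -1.60 and -1.15 for MEF, -2.64 and -2.33 for pro-B and -0.97 and -1.11 for resting B. Both ratios were lowest in both pro-B libraries and highest in both resting B libraries. An exact two-sided permutation test of 2 against 2 libraries gave p = 0.333 for each comparison, the smallest it can give. The number of primer pairs is the same in every library but differs between the regions, so only the differences between cell types can be read. From MEF to pro-B cells the regulatory region's own sums rose, by 1.64 with the constant region (edgeR adjusted p = 0.0144) and 2.30 with the D-J region (0.000886). The flank's sums had folds of 0.52 and 1.17 there, so the lower pro-B ratios do not show fewer flank contacts.

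Few of these contacts stood out from their surroundings as loops. With each library modelled by separation and primer effects, a loop was a pair over 50 kb apart whose standardised residual was at least 2 in both replicates. Of the 311 flank pairs over 50 kb apart, 0 were loops in MEF (0.208% of 12038 cis pairs), 0 for pro-B (0.374%) and 1 for resting B (0.914%). This was FOR 76, the first fragment of the D-J region, with REV 19, with residuals of 4.41 and 3.39. It had 85 and 256 reads for MEF, 2 and 62 for pro-B and 979 and 615 for resting B (2.28 over MEF, edgeR adjusted p = 0.293), so its resting B libraries were the highest although the fold did not pass. When the model was fitted to pairs over 50 kb alone, there were 5 loops in resting B cells (FOR 76 and FOR 38 with REV 19, FOR 20 with REV 4, FOR 3 with REV 17 and FOR 86 with REV 15) and 1 for MEF (FOR 3 with REV 17), and without primer effects 0 for resting B. The fit over 50 kb was an alternative added after the data were seen, and its pairs were named after their values were seen.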

How the data were processed

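Each deposited file lists primer pairs with their counts of valid reads, unnormalised, and pairs not listed were set to 0. Reads were 42 bases long, per the file headers, and all 6 libraries shared a flow cell. The submitters' processing notes name Novoalign and mm9, and the sources used here give no Novoalign version. The headers mention no correction for depth, primer strength or distance, and molecular identifiers are not mentioned either, so amplification duplicates are counted. Depth was 20580457 to 24191175 valid pairs per library.

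A cis pair was tested where 2 or more libraries had 10 or more reads, with edgeR 4.0.16 (R 4.3.3): TMM scaling, a quasi-likelihood fit of all 6 libraries by cell type, and Benjamini-Hochberg adjustment over 11940 Igh pairs at 0.05. Sums over 55 region pairs and 2240 fragment by region sums used the same scaling. Each SE is the log2 fold over the root of F. Loops came from a quasi-Poisson model per library (a spline of log separation with 4 degrees of freedom, and primer effects). Replicate counts differed beyond sampling noise, so each library counted as 1 replicate.

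The pairs, region edges and naming rules were chosen with earlier results of these data known. Named were, per comparison and direction, up to 6 called pairs by p with no fragment repeated (or the 3 of lowest p where fewer than 3 passed), every flank fragment, the enhancer fragment with its partners, up to 4 partner fragments by p, up to 3 loops per cell type and the 2 pairs with most reads. Alternatives were other scalings, DESeq2 1.42.0, other filters, fewer libraries, a replicate block, a distance correction (lowess), each pair counted once (limma 3.58.1) and sums without dominant pairs. The tests were checked on simulated counts.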

Additional observations from a re-analysis of the deposited data

How the results depend on the processing

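The medians and the sums of the flank with the constant region kept their direction under every alternative, other than pro-B over MEF with each pair counted once (-0.20). Scaling to total cis reads, gene desert reads or DESeq2's size factors moved the median of all Igh pairs for resting B over MEF from -0.017 to 0.21, 0.45 and 0.051, and that for resting B against pro-B from 0.014 to 0.28, 0.29 and 0.045. With gene desert reads the median of the flank pairs over MEF was 2.73. Of 79 single pairs or fragment sums past the threshold, none changed sign; the call was lost 60 times and kept 505 times under alternatives other than leaving out a library, and lost 235 times and kept 239 times when 1 library was left out. With 2 libraries a group, counts of called single pairs moved most.

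Pairs called higher in resting B cells than in MEF numbered 9, against 20 with total cis reads, 21 with gene desert reads, 166 by DESeq2, 23 without a filter, 16 at 50 reads or more, 257 with only the 4 libraries compared, 24 with a distance correction, and 0 to 261 leaving out 1 library. Over pro-B cells the 53 became 168 by DESeq2 (3 lower), 0 with only the 4 libraries compared, and 0 to 218 higher and 0 to 7 lower leaving out 1 library. For pro-B over MEF, DESeq2 called 19 higher and 6 lower, and leaving out 1 library gave 0 to 63 and 0 to 91. Fragment sums called for pro-B over MEF numbered 3 with total cis reads or a distance correction, 0 with gene desert reads, only the 4 libraries or each pair counted once, 19 by DESeq2, and 0 to 27 higher and 0 to 2 lower leaving out 1 library. For resting B over MEF they ranged from 0 to 69 when leaving out 1 library. For resting B over pro-B they numbered 31 with gene desert reads and 31 with a distance correction, and 0 to 59 higher and 0 to 1 lower leaving out 1 library. The causes were not tested.

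For pro-B over MEF the D-J sum was 1.07 with total cis reads, 1.30 with gene desert reads, 1.24 with only the 4 libraries and 0.51 with each pair counted once, all no longer past the threshold, and 1.04 to 1.26 leaving out 1 library; the constant sum was 0.25 to 0.78. For resting B over MEF the sum within the flank was past the threshold at 1.03 with a distance correction, 0.92 with each pair counted once and 0.92 without pairs under 20 kb; it was -0.031 without the pair with most reads and -0.086 to 0.45 leaving out 1 library. For resting B over pro-B that sum was past it at 0.86 (total cis reads), 0.84 (gene desert reads), 1.17 (distance correction), 1.48 (each pair counted once) and 1.19 (without pairs under 20 kb). The D-J sum was 1.65 with gene desert reads and 1.15 with a distance correction, not past the threshold, and 1.27 to 1.44 leaving out 1 library. Loops numbered 2 in resting B cells at a residual of 1.5, 0 without primer effects and 5 with a fit over 50 kb, where MEF had 1. With a distance correction FOR 16 with REV 17 (0.24) and FOR 9 with REV 10 (0.15) turned above 0 in resting B over MEF. Leaving out 1 library, pro-B over MEF folds with REV 81 ranged from -2.25 to 1.85 for FOR 3, -1.19 to 0.12 for FOR 6, -3.46 to 1.51 for FOR 9, -1.26 to 1.39 for FOR 16 and -2.24 to 1.69 for FOR 20.

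Same-numbered libraries did not deviate together (correlations of their deviations of -0.024, 0.061 and -0.007), so the numbers do not pair them. With the replicate number as a block, 0 pairs were called for resting B over MEF, 11 for resting B over pro-B, and 2 fragment sums for pro-B over MEF; the calls of the region sums did not change.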

Other observations

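Between the flank and the constant region lies the 3′ regulatory region, which the flank contacts at shorter range. Reads between them summed to 1016 and 1237 CPM for MEF, 2358 and 1831 for pro-B and 3174 and 3225 for resting B, so the 3 cell types did not overlap. Resting B cells were higher than MEF by 1.51 ± 0.26 on the log2 scale (edgeR adjusted p = 0.00219). Pro-B over MEF (0.89 ± 0.25, adjusted p = 0.0581) and resting B over pro-B (0.61 ± 0.25, 0.0654) did not pass.

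A pair of fragments of the constant region, picked after their values were seen, had pro-B levels with the flank above MEF. FOR 49 (114559616 to 114579798) had 57.6 and 98.9 CPM for MEF, 238 and 270 for pro-B and 347 and 377 for resting B (pro-B over MEF 1.70, not past the threshold; resting B over pro-B 0.51, edgeR adjusted p = 0.255). REV 44 (114539129 to 114547720) had 121 and 140 CPM for MEF, 298 and 254 for pro-B and 702 and 638 for resting B (pro-B over MEF 1.08, not past the threshold). In both, the pro-B libraries lay above both MEF libraries, whereas REV 41 between FOR 40 and REV 44 had 48.6 and 77.3 CPM for MEF and 70.6 and 64.9 for pro-B.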
